A study of Mus musculus with 24 samples.

Results

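The genes analysed were 10 genes whose proteins build elastic fibres, picked from the table of 14912 genes by symbol for the known function of their proteins. They were Eln (elastin), the fibrillins Fbn1 and Fbn2, the short fibulins Fbln5, Efemp1 (fibulin-3) and Efemp2 (fibulin-4), the long fibulins Fbln1 and Fbln2, and the microfibril-associated genes Mfap4 and Mfap5. All 10 genes had a row in the table and passed the filter on low values. RNA of the left ventricle was sequenced for 12 male wild-type C57BL/6J mice given 1500 ng/kg/min of angiotensin II (ANG II) for 7 days, the hypertensive-LVH group, and for 12 such mice infused with saline for 7 days, the control group. ANG II is a pressor peptide, which was given from osmotic pumps under the skin, and the samples are biological replicates per the study's methods. The comparison asks which of these genes differ between left ventricles with and without ANG II-induced hypertrophy (LVH). The values were FPKM as the authors deposited them, that is, fragments of a gene scaled to the length of its transcript and to the size of the library, a level per length.

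Elastic fibres give arteries, valves and connective tissue their recoil. Elastin is secreted as soluble tropoelastin, is deposited on a scaffold of fibrillin microfibrils with the help of short fibulins, and is made insoluble by cross-linking through lysyl oxidases. In the heart the fibres lie mainly in the coronary vessel walls, the valves, the epicardium and the interstitium, where smooth muscle cells and fibroblasts make their parts.

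On GRCm38 in GENCODE vM21, Eln (ENSMUSG00000029675.12) lies on chromosome 5 from 134702593 to 134747323 on the minus strand. Fbn1 (ENSMUSG00000027204.13) lies on chromosome 2 from 125300594 to 125507993 on the minus strand, and Mfap4 (ENSMUSG00000042436.12) on chromosome 11 from 61485431 to 61488900 on the plus strand. Fbln5 (ENSMUSG00000021186.9) is on chromosome 12 from 101746565 to 101819055, minus strand, and Efemp2 (ENSMUSG00000024909.15) on chromosome 19 from 5473954 to 5482517, plus strand. Mfap5 (ENSMUSG00000030116.14) and Fbln2 (ENSMUSG00000064080.12) share chromosome 6, from 122505845 to 122529290 and from 91212455 to 91272540, both on the plus strand. Efemp1 (ENSMUSG00000020467.15) lies on chromosome 11 from 28853204 to 28926743 and Fbln1 (ENSMUSG00000006369.14) on chromosome 15 from 85205949 to 85286535, both on the plus strand. All of them are protein-coding genes.

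The 250 bases before the start of transcription are shown for 4 fibulin genes, because Fbln5 and Efemp2 rose in the hypertensive-LVH group while Efemp1 and Fbln1 did not pass the test. RefSeq, on GRCm38.p6, gave starts for 6 of the 10 genes (Fbn1, Fbln5, Efemp1, Efemp2, Fbln1 and Fbln2), and where a gene had several starts the one nearest the GENCODE start was taken. RefSeq and GENCODE starts can differ, and the windows of Fbn1 and Fbln2 lay inside the GENCODE gene. The sequences read 5′ to 3′ on the strand of the gene, and capitals mark the motifs found on either strand, which were GC boxes (GGGCGG) and, in Efemp1, an AP-1 site (TGANTCA).
Fbln5 (chr12:101819120-101819369, minus strand): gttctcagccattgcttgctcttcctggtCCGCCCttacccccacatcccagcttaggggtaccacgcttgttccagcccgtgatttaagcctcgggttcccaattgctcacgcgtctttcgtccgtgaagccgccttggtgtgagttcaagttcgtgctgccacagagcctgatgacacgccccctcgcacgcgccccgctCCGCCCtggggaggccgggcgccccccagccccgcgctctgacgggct
Efemp2 (chr19:5473696-5473945, plus strand): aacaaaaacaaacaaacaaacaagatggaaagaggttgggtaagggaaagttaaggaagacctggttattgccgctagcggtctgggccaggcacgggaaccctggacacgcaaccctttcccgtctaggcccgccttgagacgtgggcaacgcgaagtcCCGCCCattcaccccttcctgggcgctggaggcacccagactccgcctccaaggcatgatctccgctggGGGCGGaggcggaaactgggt
Efemp1 (chr11:28852955-28853204, plus strand): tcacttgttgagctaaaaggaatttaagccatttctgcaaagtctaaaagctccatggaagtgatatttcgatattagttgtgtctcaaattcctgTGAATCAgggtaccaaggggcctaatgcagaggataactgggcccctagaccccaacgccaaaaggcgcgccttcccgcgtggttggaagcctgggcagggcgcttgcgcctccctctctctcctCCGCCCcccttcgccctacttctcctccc
Fbln1 (chr15:85205699-85205948, plus strand): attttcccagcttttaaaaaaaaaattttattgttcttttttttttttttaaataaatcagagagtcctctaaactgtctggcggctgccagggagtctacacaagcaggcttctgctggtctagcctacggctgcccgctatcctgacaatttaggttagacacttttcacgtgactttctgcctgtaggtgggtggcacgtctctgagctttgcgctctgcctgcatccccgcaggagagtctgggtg
Fbln5 and Efemp2 each held 2 GC boxes, Efemp1 1 and Fbln1 0. Fbn1 and Fbln2, which also rose and whose windows are not shown, each held 1, the same number as Efemp1. Eln, Mfap4, Mfap5 and Fbn2 had no window, and a link between the number of boxes and the calls was not tested. A GC box was found before 32.7% of 32851 mouse starts in windows of the same length, and an AP-1 site before 6.75%. Neither a TEAD site (CATTCC, in 12.6% of windows) nor a TATA box (TATAAA, in 12.4%) was found in the 6 windows. The motifs did not overlap each other. GC content was 65.2% in Fbln5, 59.2% in Efemp2, 53.6% in Efemp1 and 46.4% in Fbln1, against a median of 52.4% over all windows. These matches describe letters only, and binding was not measured.

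The 14912 values of a sample summed to between 460715 and 515185 with ANG II, against 482319 to 567727 in controls, and how many fragments each library gave is not known. Of all values, 2741 (0.766%) were negative, which FPKM cannot be. Exact ties between samples divided both groups alike into 4 sets, samples 1 to 3, 4 to 6, 7 to 9 and 10 to 12. From the spacing of their values, most genes were inferred to have been shifted and scaled within the sets. No such adjustment was seen for 278 genes, and for 396 it could not be reconstructed. The summed level of 5 cardiomyocyte markers (Myh6, Tnnt2, Actn2, Ryr2 and Myl2) ranged from 19099 to 26733 FPKM with ANG II, against 24820 to 31221 in controls. The samples thus had markers of heart muscle. The sum of the atrial markers, given below, varied from 0 to 2303 FPKM with ANG II and from 0 to 3153 in controls. Quantile normalization, in which every sample gets the same distribution, changed the split of all genes past an adjusted p of 0.05 from 2928 higher and 1769 lower to 1922 higher and 2930 lower, and median-ratio scaling changed it to 2410 and 2230. The calls of the 10 genes by either criterion did not change under these scalings.

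Of the 10 elastic fibre genes, 7 rose in the hypertensive-LVH group: Eln, Fbn1, Fbln5, Efemp2, Fbln2, Mfap4 and Mfap5. They passed an adjusted p of 0.05 (limma on log2(FPKM + 1) with negative values set to 0, Benjamini-Hochberg over 14026 genes), as did 20.9% of all genes tested in this direction. By the criteria for differentially expressed genes (DEGs), which add an absolute log2 fold change over 0.5, 6 rose against 4.52% of all genes, and Fbln2 lay just under the fold change limit (over it, at 0.51, with a pseudocount of 0.1). None of the 10 fell, 0 by limma's adjusted p, against 12.6% of all genes, and 0 at an unadjusted p under 0.05. The median log2 fold change of the 10 genes was 0.75, against 0.05 over all genes tested. Summed over the 10 genes, the deposited levels ranged from 316 to 739 FPKM (median 526) with ANG II, against 72.2 to 424 (median 287) in controls. In bulk tissue, more cells that make these proteins and more RNA per cell cannot be told apart. The rise was not of 1 size in the 4 sets, and only Eln, Mfap4 and Mfap5 kept an adjusted p under 0.05 without samples 4 to 6 (8.36% of all genes were then higher).

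**Figure D1:**
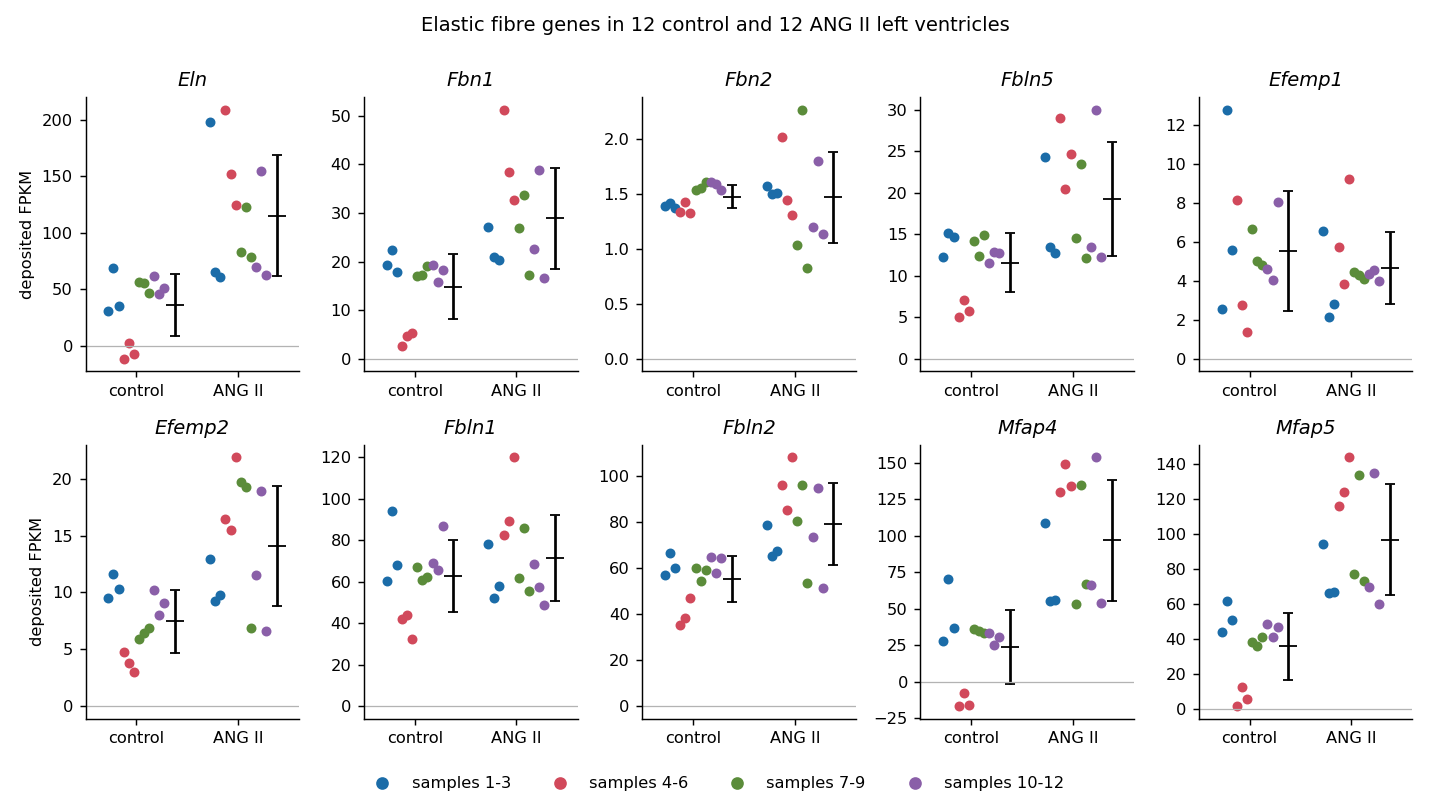
Deposited FPKM of each of the 10 genes (y axis) in the 12 control and 12 ANG II samples (x axis), 1 point per sample, coloured by set of samples, with the mean and SD of each group in black. Control samples 4 to 6 are the lowest controls for Eln, Fbn1, Fbln5, Efemp2, Fbln1, Fbln2, Mfap4 and Mfap5, and Fbn2 spreads more widely in the ANG II samples (0.827 to 2.27) than in the controls (1.33 to 1.61).

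Eln encodes tropoelastin, the elastic core of the fibre. Its level ran from 61.3 to 209 FPKM (median 103) with ANG II, against -11.3 to 68.9 (median 46.5) in controls. In 9 of 12 ANG II samples it exceeded all of the controls, and in 12 of 12 it exceeded the control median. The means were 115 ± 53.4 (SD, n = 12) and 36.5 ± 27.5 (SD, n = 12), and the log2 fold change was 2.35 ± 0.66 (SE, limma, adjusted p = 0.00843). Control samples 4 and 6 had negative values and sample 5 had 2.16, so the size of this change depends on the adjustment. Within the sets the log2 difference was 1.12, 6.76, 0.79 and 0.73 in order, and it was 0.88 over the 9 samples per group outside samples 4 to 6. Eln had the highest mean of the 10 genes in the hypertensive-LVH group and the third highest in the control group, behind Fbln1 and Fbln2. In 10 of 12 ANG II samples Eln was above Mfap4, the next in order, while Mfap4 and Mfap5 were not apart beyond their spread (97.0 ± 41.6 and 96.8 ± 31.8, SD, n = 12).

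The fibrillins form the microfibrils on which elastin is laid down, Fbn1 throughout life and Fbn2 mainly during development. Fbn1 lay between 16.6 and 51.3 FPKM (median 27.1) in the hypertensive-LVH group and between 2.51 and 22.4 (median 17.5) in the control group. It exceeded all controls in 8 of 12 ANG II samples, and the 3 lowest controls were samples 4 to 6. Fbn1 rose by a log2 fold change of 1.04 ± 0.28 (SE, limma, adjusted p = 0.00639). Without samples 4 to 6 the change was 0.37, with an adjusted p of 0.0507 (limma). Fbn2 was the lowest of the 10 genes in each group, with 0.827 to 2.27 FPKM (median 1.47) in the hypertensive-LVH group and 1.33 to 1.61 (median 1.49) in the control group. The groups overlapped, with a log2 fold change of -0.02 ± 0.07 (SE, limma, adjusted p = 0.823). The SD of Fbn2 was 0.413 in the hypertensive-LVH group and 0.107 in the control group.

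Among the short fibulins, Fbln5 and Efemp2 help elastin to assemble and bring it to lysyl oxidases, while Efemp1 is found in the matrix of many tissues. Fbln5 ranged from 12.1 to 30.0 FPKM (median 17.5) with ANG II, against 5.05 to 15.1 (median 12.6) in controls. Its groups overlapped, with 6 of 12 ANG II samples above all controls, and it rose by 0.68 ± 0.19 on the log2 scale (SE, limma, adjusted p = 0.00800). Efemp2 ranged from 6.65 to 21.9 (median 14.2) with ANG II and from 2.98 to 11.6 (median 7.42) in controls, with 7 of 12 ANG II samples above all controls. Efemp2 rose by 0.82 ± 0.21 on the log2 scale (SE, limma, adjusted p = 0.00371). Neither was past the threshold without samples 4 to 6, where Fbln5 changed by 0.28 (limma, adjusted p = 0.208) and Efemp2 by 0.44 (limma, adjusted p = 0.117). Efemp1 did not pass the test. Its values of 2.12 to 9.25 (median 4.32) in the hypertensive-LVH group lay within the 1.36 to 12.8 (median 4.92) of the control group, and the log2 fold change was -0.12 ± 0.22 (SE, limma, adjusted p = 0.703). Only 3 of 12 ANG II samples exceeded the control median of Efemp1.

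The long fibulins Fbln1 and Fbln2 bind elastin, fibrillin and basement membrane proteins, and they were the most abundant of the 10 genes in the control group. Fbln2 ranged from 51.1 to 108 FPKM (median 79.5) with ANG II, against 35.2 to 66.3 (median 58.4) in controls. It was above all controls in 9 of 12 ANG II samples and rose by 0.499 on the log2 scale (SE 0.12, limma, adjusted p = 0.00295). Without samples 4 to 6 the change was 0.25 (limma, adjusted p = 0.0952). Fbln1 ranged from 48.7 to 120 (median 65.1) with ANG II and from 32.2 to 93.9 (median 63.9) in controls, so that 1 of 12 ANG II samples exceeded all controls. Its log2 fold change of 0.19 ± 0.16 (SE, limma, adjusted p = 0.345) turned to -0.17 without samples 4 to 6 (limma, adjusted p = 0.287).

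The microfibril-associated genes showed the largest log2 fold change of the 10 genes, that of Mfap4. The protein of Mfap4 binds tropoelastin and fibrillin, and that of Mfap5 is bound along fibrillin microfibrils. Mfap4 ranged from 53.1 to 154 FPKM (median 88.1) with ANG II, against -16.8 to 70.2 (median 31.8) in controls, with negative values in the 3 control samples 4 to 6. It was above all controls in 6 of 12 ANG II samples and above the control median in 12 of 12. Its log2 fold change was 2.61 ± 0.66 (SE, limma, adjusted p = 0.00388), with within-set differences of 0.74, 7.12, 1.16 and 1.45. The second of these rests on controls set to 0, and without samples 4 to 6 the change was 1.11. Mfap5 separated the groups best, since 11 of 12 ANG II samples exceeded every control. It ranged from 60.0 to 144 (median 85.6) with ANG II and from 1.41 to 61.7 (median 41.1) in controls, and the log2 fold change was 1.76 ± 0.41 (SE, limma, adjusted p = 0.00210), or 0.87 without samples 4 to 6.

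The size of the change differed between the sets of samples for 8 of the 10 genes, all but Fbn2 and Efemp1, by limma's F test of the group by set interaction (adjusted p under 0.05 in 7.49% of all genes). For each of the 8 the change was largest in samples 4 to 6. Without these samples 0 of the 10 genes passed this test by limma, at an adjusted or an unadjusted p under 0.05, and the lowest adjusted p was 0.834. By adjusted p, 3 of all 14026 genes tested then passed it, so the loss is not particular to the 10 genes. Summed levels of marker genes of other cells are given beside these values. Of single markers, 2 of 6 fibroblast, 3 of 4 activated fibroblast, 2 of 5 smooth muscle and 4 of 4 macrophage markers were higher. These calls are at an adjusted p under 0.05 (limma, over all genes), against 20.9% of all genes, and none of these markers was lower. Without samples 4 to 6 the markers higher in these lists numbered 0, 1, 0 and 0 in order, against 8.36% of all genes. Over all samples, the endothelial list had 1 higher (Pecam1) and 1 lower (Kdr), the cardiomyocyte list 1 lower (Myl2), and the mesothelial and atrial lists 0. In samples 4 to 6 the log2 difference was positive for all 6 fibroblast markers, from 0.56 (Pdgfra) to 3.83 (Lum). Among the 5 smooth muscle markers Tagln was at 4.42, Cnn1 at 2.91, Myh11 at 1.11, Smtn at 0.06 and Myocd at -0.52. The summed level of 6 fibroblast markers (Pdgfra, Tcf21, Dpt, Lum, Ddr2 and Col15a1) ranged from 135 to 357 FPKM with ANG II, against 63.7 to 197 in controls, and in samples 4 to 6 its means were 309 with ANG II and 74.0 in controls. The values of the other lists follow in the same order. For 5 smooth muscle markers (Myh11, Cnn1, Tagln, Smtn and Myocd) the ranges were 85.8 to 185 and 74.9 to 154, with means of 155 and 87.5 in samples 4 to 6. The 4 macrophage markers (Adgre1, Csf1r, C1qa and Cd68) ranged from 106 to 317 and from 80.9 to 166, with 236 and 87.1 in samples 4 to 6, and the 5 cardiomyocyte markers had means of 20607 and 30292 there. The 4 activated fibroblast markers (Postn, Cthrc1, Acta2 and Fap) ranged from 193 to 486 and from 132 to 261, with 325 and 166 in samples 4 to 6. For 4 endothelial markers (Pecam1, Cdh5, Tie1 and Kdr) the ranges were 251 to 406 and 262 to 336, with 348 and 275 in samples 4 to 6. For 3 of 4 atrial markers in the table (Myl7, Myl4 and Sln) they were 0 to 2303 and 0 to 3153, with 885 and 16.9 in samples 4 to 6. No marker in the table was at 0 in all samples. The part of these cells in the results was not tested.

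The spacing of the deposited values made it possible to reconstruct, for most genes, the scaling in each set and the differences between ANG II and control samples within the set before that adjustment. The reconstruction assumes that 1 group difference per gene was held out, that what remained was shifted and scaled within each set, and that the held-out difference was then restored. The offset of a set cannot be reconstructed, so differences in FPKM are given without levels or folds. An exact permutation test with labels exchanged within sets (two-sided, 160000 relabelings, Benjamini-Hochberg over 13817 genes) found 8 of the 10 genes higher at an adjusted p under 0.05, against 17.8% of all genes. They were the 7 genes above and Fbn2. Mean differences of the 4 sets were 87.1 FPKM for Eln (exact permutation test, adjusted p = 0.00561), 73.8 for Mfap4 (adjusted p = 0.00620), 57.6 for Mfap5 (adjusted p = 0.00339) and 24.4 for Fbln2 (adjusted p = 0.00970). The difference was 14.0 for Fbn1 (exact permutation test, adjusted p = 0.0124), 7.47 for Fbln5 (adjusted p = 0.0414) and 5.98 for Efemp2 (adjusted p = 0.0327). Fbn1 and Efemp2 were lower in the ANG II samples 1 to 3, with differences of -1.79 and -1.80, and higher in the other sets, while Eln, Fbln2, Fbln5, Mfap4 and Mfap5 were higher in 4 of 4 sets. Fbln1 differed by 13.5 (exact permutation test, adjusted p = 0.342) and Efemp1 by -1.05 (adjusted p = 0.681), and neither kept its direction over the sets.

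Deposited and reconstructed differences had opposite signs in samples 1 to 3 for Fbn1 (2.98 FPKM as deposited) and Efemp2 (0.192), and in samples 7 to 12 for Fbn2. Of these, Fbn2 alone was not past the threshold as deposited and past it as reconstructed. Before the adjustment, ANG II minus control was 0.0833, 0.623, 0.667 and 0.280 FPKM in the 4 sets in order. In each set the 3 ANG II samples lay above the 3 controls, which held in all 4 sets for 0.311% of all genes. The mean difference was 0.413 (exact permutation test, p = 1.25e-05, the smallest that the relabelings can give, adjusted p = 0.00157). The deposited differences of the same sets were 0.131, 0.222, -0.190 and -0.203. The group difference inferred as held out for Fbn2 was 2.08 FPKM, larger than that of any of the 4 sets. The study describes more samples per group than were analysed here, and their part in this value was not tested. The scale factors were 1.61 in samples 7 to 9 and 1.27 in samples 10 to 12. Under the assumed adjustment, restoring the held-out difference after this scaling turned the direction of these sets. A group difference outside the range of the 4 sets was found for 9.78% of reconstructed genes.

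**Figure D2:**
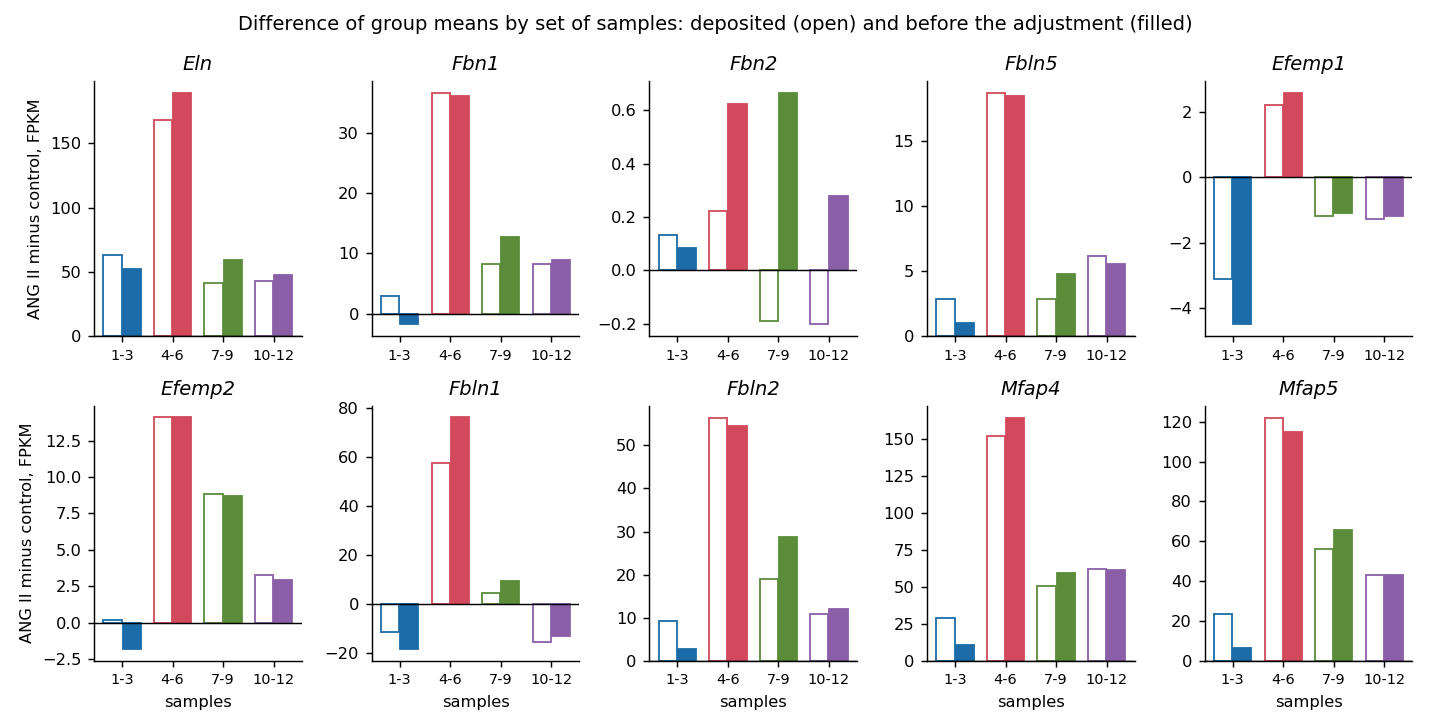
Difference of the group means, ANG II minus control, in FPKM (y axis) for each of the 10 genes in the 4 sets of samples (x axis), as deposited (open bars) and as reconstructed before the adjustment (filled bars). Fbn2 is at 0.667 before the adjustment and at -0.190 as deposited in samples 7 to 9, and the bars of most other genes are tallest in samples 4 to 6.

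With a set left out, the exact permutation test had 8000 relabelings, against 160000 over all samples. Without samples 4 to 6, it kept 2 of the 10 genes, Fbn2 (0.343 FPKM, exact permutation test, adjusted p = 0.0137) and Mfap5 (38.4 FPKM, adjusted p = 0.0359), against 5.97% of all genes. Without samples 7 to 9 it kept the same 2 genes, Fbn2 (0.329 FPKM, adjusted p = 0.0243) and Mfap5 (54.9 FPKM, adjusted p = 0.0413), against 6.51% of all genes. Eln had an adjusted p of 0.0608 and 0.0622 in these exact permutation tests, and Mfap4 one of 0.0684 and 0.0564. Without samples 10 to 12 it kept 6 of the 10, against 9.43% of all genes, and Fbln5 (8.11 FPKM, exact permutation test, adjusted p = 0.0791) and Efemp2 (6.99 FPKM, adjusted p = 0.0709) were no longer past the threshold. Without samples 1 to 3 it kept 8, against 24.4% of all genes. With samples 4 to 6 left out, the differences of Eln and Mfap4 were 53.2 and 43.8 FPKM. With samples 7 to 9 left out they were 96.3 and 78.6 FPKM, against 87.1 and 73.8 over all samples. A call lost with fewer samples and relabelings thus does not by itself show a smaller difference.

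Other genes of elastic fibre assembly, turnover and binding were taken as a list by role, of which 39 of 42 were in the table and all 39 were tested. Of these, 25 were higher and 1 (Emilin2) was lower at an adjusted p under 0.05 (limma), against 20.9% and 12.6% of all genes, and 18 rose by both DEG criteria, against 4.52%. The median log2 fold change of the list was 0.28, against 0.05 over all genes. Without samples 4 to 6, 11 were higher, against 8.36% of all genes, and the 1 that was lower was Adamtsl3 (-0.20, limma, adjusted p = 0.0268) and no longer Emilin2. The median was then 0.15, against 0.01 over all genes. On the reconstructed differences 23 of 36 were higher, against 17.8% of all genes, and 1 was lower (exact permutation test, adjusted p under 0.05).

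Of the enzymes that cross-link elastin and collagen, 5 of 5 rose past the adjusted p over all samples, against 20.9% of all genes. Without samples 4 to 6, 2 of 5 did so, against 8.36% of all genes. Lox, the main lysyl oxidase, ranged from 5.95 to 39.8 FPKM (median 17.9) with ANG II, against 1.31 to 9.58 (median 5.30) in controls. It was above all controls in 10 of 12 ANG II samples and rose by 1.77 ± 0.31 on the log2 scale (SE, limma, adjusted p = 1.52e-04). Loxl2 rose by 1.29, Loxl1, which is needed to keep elastin renewed, by 1.02 and Loxl3 by 0.72. Loxl4 had the lowest change, 0.25, and was past the adjusted p but not the fold change limit. Lox (1.45) and Loxl2 (0.70) were still past the threshold, while Loxl1 (0.48, limma, adjusted p = 0.0512), Loxl3 (0.17, adjusted p = 0.371) and Loxl4 (0.05, adjusted p = 0.647) were not, all without samples 4 to 6.

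Among 7 microfibril-associated and emilin genes, 4 rose, against 20.9% of all genes (8.36% without samples 4 to 6). They were Mfap2 (1.24), Emilin1 (0.85), Mmrn1 (0.62) and, under the fold change limit, Fbln7 (0.32), all as log2 fold changes by limma. Emilin2 fell by 0.34 on the log2 scale (limma, adjusted p = 0.0122). Of these 5 only Mmrn1 (0.45) was past the threshold without samples 4 to 6, with Mfap2 at 0.48 (limma, adjusted p = 0.138), Emilin1 at 0.37 (adjusted p = 0.0968), Fbln7 at 0.08 (adjusted p = 0.479) and Emilin2 at -0.19 (adjusted p = 0.138). Some, but not all, of the latent TGF-β binding proteins hold the growth factor TGF-β in the matrix, and some bind to microfibrils. Of 4 genes of this family, Ltbp2 (1.41) and Ltbp3 (0.68) rose, against 20.9% of all genes. Ltbp1 (-0.06, limma, adjusted p = 0.434) and Ltbp4 (0.08, adjusted p = 0.607) did not pass the test. Neither Ltbp2 nor Ltbp3 was past the threshold without samples 4 to 6. Of 7 fibrillin-binding ADAMTS and ADAMTS-like genes, Adamtsl2 (1.33), Adamts10 (0.53) and Adamtsl5 (0.28) rose, against 20.9% of all genes. The lowest change of this role was that of Adamtsl3 (-0.06). Adamts10 was at 0.10 without samples 4 to 6 (limma, adjusted p = 0.478), while Adamtsl2 (0.56) and Adamtsl5 (0.27) were still past the threshold. On the reconstructed differences 1 of 6 genes of this role was higher, against 17.8% of all genes. It was Adamtsl2 (exact permutation test, adjusted p = 0.00216), and Adamts10 had an adjusted p of 0.0533.

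Proteases that can degrade elastin rose in 4 of 5 cases, against 20.9% of all genes. Ctss and Ctsk, which encode cathepsins S and K, rose by 1.33 and 1.17 on the log2 scale, Mmp2 by 1.03 and Mmp12, the macrophage elastase, by 0.50. The call of Mmp12 was marginal (limma, adjusted p = 0.0494), and Mmp2 changed by 0.13 without samples 4 to 6 (limma, adjusted p = 0.351). Ctss (0.99) and Ctsk (0.44) were past the threshold without those samples, and Mmp12 (0.57, limma, adjusted p = 0.110) was not. Mmp9 had a log2 fold change of -0.15 (limma, adjusted p = 0.271). Of 11 receptor genes, 7 rose, against 20.9% of all genes. Lgals3 (1.46), Itgb3 (0.97) and Itga5 (0.64) did so past the fold change limit, against 4.52% of all genes. Itgb3 and Itga5 encode integrin subunits that take part in binding fibrillin and fibronectin. They had the lowest adjusted p of the list, 3.94e-06 and 3.43e-06 (limma), and neither differed between the sets by the interaction test (limma, adjusted p = 0.147 and 0.346). When samples 4 to 6 were left out, 4 of the 11 were still past the threshold, against 8.36% of all genes. They were Lgals3 (1.27), Itgb3 (0.79), Itga5 (0.60) and Itgb1 (0.25). Neu1 had the lowest change of the receptor genes (-0.03).

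**Figure D3:**
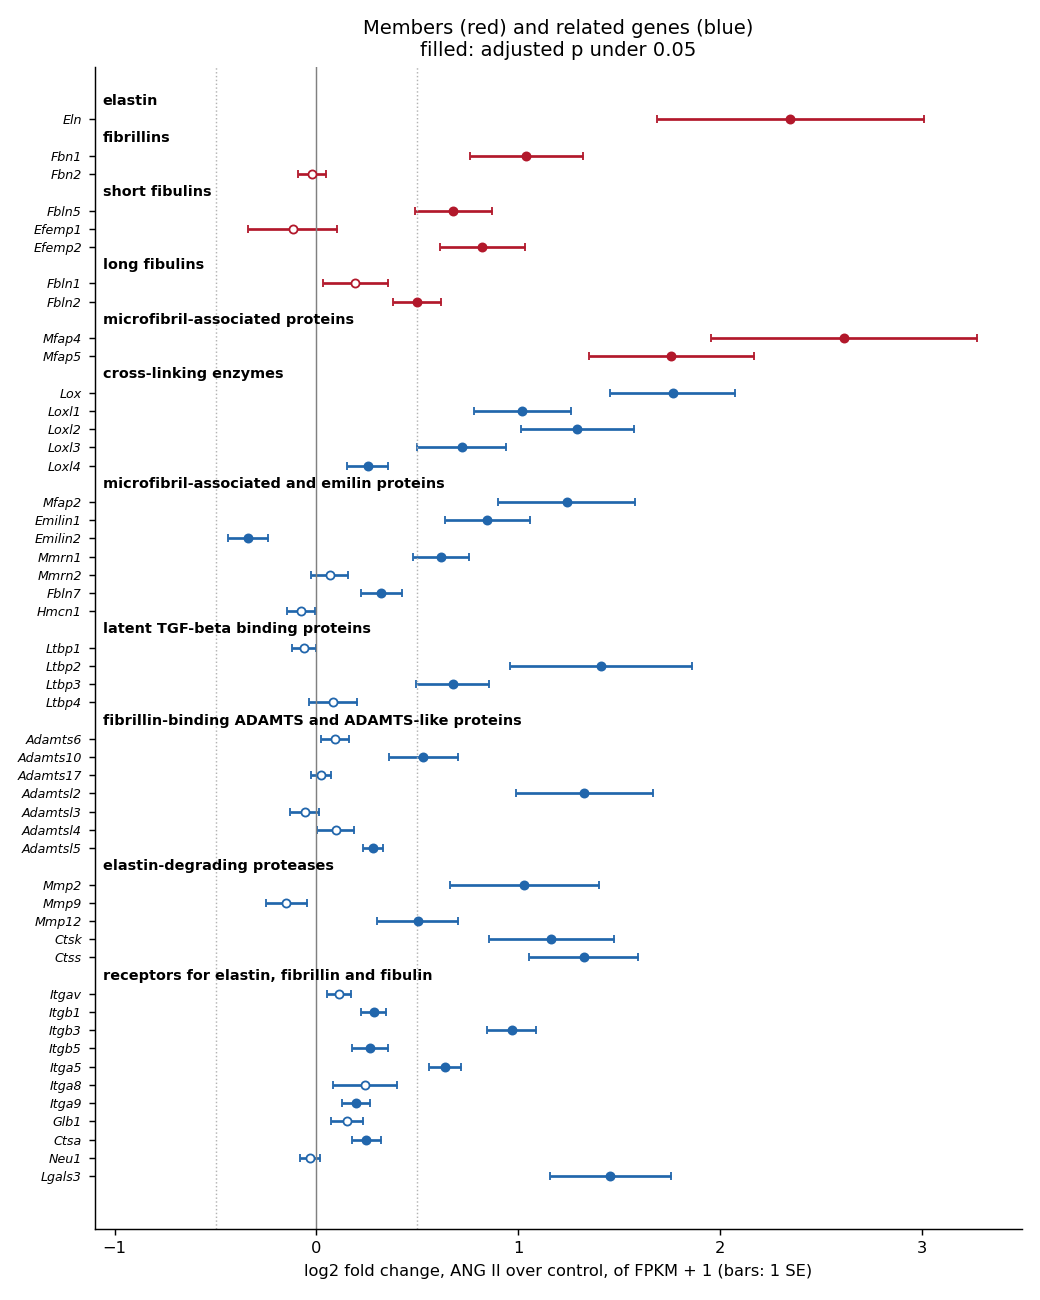
Log2 fold change of FPKM + 1, ANG II over control (x axis), for the 10 genes (red) and 39 related genes (blue), grouped by role (y axis), with bars of 1 SE, filled points at an adjusted p under 0.05 and dotted lines at 0.5 and -0.5. Mfap4 (2.61) and Eln (2.35) lie farthest to the right, and Emilin2 (-0.34) is the filled point on the left.

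Within groups and sets, the 10 genes varied together to different degrees. After the mean of each group in each set was removed from log2(FPKM + 1), Pearson's r over the 24 samples ranged from -0.13 to 0.82 (median 0.57) over the 45 pairs, and these coefficients share the libraries and their scaling. Over the 21 pairs of the 7 genes that rose, it ranged from 0.32 to 0.82 (median 0.66). On this scale values near 0 lie far apart. In control samples 4 to 6 Mfap5 was at 1.41, 12.1 and 5.66 FPKM. Eln was at 2.16 in control sample 5 and was set to 0 in samples 4 and 6. The weight of such low values in r was not tested. Fbln2 was most like Fbn1 and Efemp2 (r = 0.82 each). Efemp1 was least like the others, with -0.13 against Mfap5 and -0.11 against Fbn1, but 0.72 against Fbln1. Fbn2, which did not differ between groups as deposited, had r = 0.72 with Fbn1 and 0.73 with Fbln5.

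**Figure D4:**
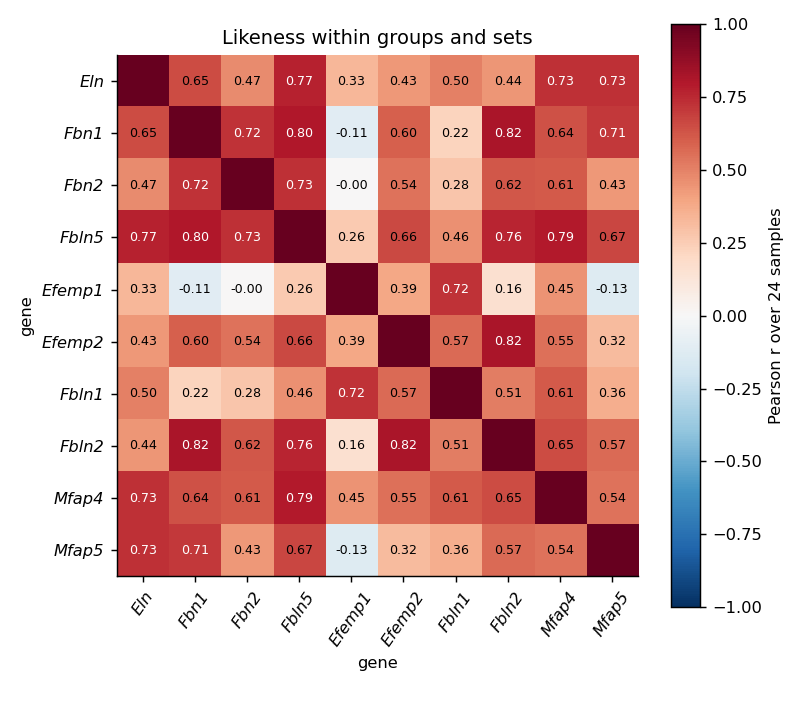
Pearson's r over 24 samples between each pair of the 10 genes (both axes), on log2(FPKM + 1) with the mean of each group in each set removed, from blue (negative) to red (positive). The row of Efemp1 is palest, with values from -0.13 to 0.72.

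The genes most like each of the 10 were sought among all 14026 tested genes by the same measure, and none of the 10 was among the closest 3 of another. The same low control values enter these coefficients. Eln was closest to Hyal1 (r = 0.92), Cnn1 (0.91), a smooth muscle gene, and Fmod (0.90), which encodes a collagen-binding proteoglycan. Mfap5 was closest to Serpinf1 (0.97), Mmp2 (0.93) and Bgn (0.90), and Fbln5 to Fstl1 (0.91), Kcne1l (0.91) and Pdgfrl (0.90). Fbn1 was closest to Mcam (0.95), Ddx11 (0.92) and Ap2b1 (0.92), Efemp2 to Gas7 (0.96), Tmem176a (0.93) and Arpc1b (0.93), and Fbln2 to Sdc3 (0.95), Clic1 (0.94) and Emp3 (0.94). Mfap4 had Kctd15 (0.92), Aoc3 (0.89) and Fam129a (0.89), and Fbln1 had Cd24a (0.90), Arpc2 (0.88) and Sec22b (0.86). Fbn2 was closest to Cemip (0.97), Disp2 (0.93) and Col11a1 (0.91), a fibrillar collagen gene. Efemp1 was closest to Upk1b (0.95), Krt7 (0.93) and Smpd3 (0.93), and Upk1b is a mesothelial marker. The summed level of 5 mesothelial markers (Upk3b, Upk1b, Msln, Wt1 and Krt19), cells of the surface of the heart, ranged from 4.16 to 28.3 FPKM with ANG II, against 5.43 to 55.4 in controls. In samples 4 to 6 its means were 17.8 with ANG II and 19.7 in controls, and its part in the values of Efemp1 was not tested.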

How the data were processed

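The samples, 12 with ANG II and 12 controls, were grouped by their labels. The authors deposited 1 FPKM value per gene and sample, and Bowtie2, HISAT and RSEM are named in the submitters' processing notes, while the genome build is not given in the sources used here. The deposited values include negative ones, and no adjustment by set is named in the methods of the study. Negative values were set to 0 for log2(FPKM + 1), and genes whose mean reached 0.1 FPKM (14026) were tested with limma 3.58.1 in R 4.3.3 with an intensity trend. Printed means and ranges kept negative values, whereas summed marker levels set them to 0. Samples with at least 100 exact ties were joined into a set.

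Differences before the adjustment were obtained for 14516 genes (97.3%) in steps of 0.01 FPKM, of which 278 showed no adjustment. The limma fit and the reconstruction were tried on simulated data. On independent values without sets of samples, limma called 197 of 200 changed genes and 2 unchanged genes by both criteria. The reconstruction was right for 398 of 400 genes made with the adjustment that it assumes. Neither trial could test whether that adjustment holds for the deposited values. Python 3.11.15, numpy 2.4.6, pandas 2.3.3, scipy 1.17.1 and matplotlib 3.10.9 were used. The 10 genes and all lists were chosen with earlier results of these data known. Named were all 10 genes, of the related list the genes past both criteria and the lowest and highest of each role, and for each of the 10 the 3 genes most like it. Fbln7, Ltbp4, Adamtsl5, Itgb1 and single markers were named beyond this after their values were seen. The alternatives were another pseudocount, other filters, other scalings, no trend, a floor of 0.01, the set as a term, the replicate number as a block and leaving out each set. The reconstruction was added after seeing the data.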

Additional observations from a re-analysis of the deposited data

Results flagged for a closer look

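The change with ANG II differed between the 4 sets of samples for 8 of the 10 elastic fibre genes, by limma's F test of the group by set interaction with adjustment over all genes. The adjusted p was 9.31e-08 for Mfap4, 4.50e-06 for Eln, 9.80e-05 for Fbn1 and 3.94e-04 for Mfap5 (limma). It was 0.00276 for Fbln1, 0.0184 for Fbln5, 0.0248 for Efemp2 and 0.0338 for Fbln2 (limma). In samples 4 to 6 the log2 differences of these genes ran from 1.25 (Fbln2) to 7.12 (Mfap4). Negative control values were set to 0 there, in 3 samples for Mfap4 and 2 for Eln. The log2 differences and interaction tests of Mfap4 and Eln rest in part on that floor. In the other sets Fbln1 had differences of -0.23, 0.07 and -0.34. The fibroblast marker sum of control samples 4 to 6 was 63.7 to 91.9 FPKM as deposited, against 144 to 197 in the other controls. The offset of a set cannot be reconstructed, so these sums do not show how levels differed between sets before the adjustment. The part of these markers in the difference was not tested.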

How the results depend on the processing

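Under the 9 alternatives that kept all 24 samples, the direction and the adjusted p call of each of the 10 genes stayed as reported (90 of 90 values). By both criteria, Fbln2 was added with a pseudocount of 0.1 (7 in place of 6 genes). Without samples 4 to 6, the genes that rose numbered 3 in place of 7 by adjusted p and 3 in place of 6 by both criteria. The related genes that rose then numbered 11 in place of 25, and 7 in place of 18 by both criteria. Of the 10 genes, those that differed between sets numbered 0 in place of 8, and of all genes 3 in place of 1050. The cause was not tested. With the replicate number as a block, 7 of the 10 genes still rose (limma, adjusted p from 0.0145 to 0.0477), but 16 in place of 25 related genes did, and 1586 in place of 2928 of all genes. Same-numbered samples shared a number and a set. Their deviations from the group means correlated at -0.56 to -0.00. With the mean of each group in each set removed, the range was -0.42 to 0.27. By the first measure, 0 of the 12 ANG II samples correlated best with the control of their own number. The shift within sets acts on these correlations, so they cannot show whether same-numbered samples were paired. Genes whose sign turned were those not past the threshold. Fbn2 was at 0.02 without samples 7 to 9 and 0.01 without samples 10 to 12, Efemp1 at 0.05 without samples 1 to 3 and Fbln1 at -0.17 without samples 4 to 6. On reconstructed differences, a test added after seeing the data, 2 in place of 8 genes were higher without samples 4 to 6, 2 without samples 7 to 9 and 6 without samples 10 to 12. These tests had fewer samples and 8000 relabelings, against 160000 over all samples. On the same differences Efemp1 turned to 0.0978 FPKM without samples 1 to 3 and Fbln1 to -7.41 without samples 4 to 6. The call of Mmp12 was lost under every alternative that could be run for it except negative values at 0.01. The number of fragments is unknown, so no counting error is given, and the SD of Fbn2 in the controls of a set before the adjustment (0.0208 to 0.0436 FPKM) spans few steps of 0.01 FPKM.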
